A study of Homo sapiens with 4 samples.

Results

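Solute carrier (SLC) genes were examined in A549 cells, a human lung adenocarcinoma line, that carried either a control short hairpin RNA or one directed at USP2-AS1, a long non-coding RNA. Members were taken by symbol: every protein-coding row of the deposited gene table whose symbol begins with SLC and a family number, apart from SLC7A11, SLC3A2, SLC7A5, SLC1A5 and SLC7A1. This gave 128 members in 40 families, out of 6828 listed genes of which 6372 are protein-coding. They comprised 21 members of the mitochondrial carrier family SLC25 and 107 members of other families. RNA was taken 72 h after lentiviral infection, with 2 control libraries (shctrl) and 2 knockdown libraries (shUSP2-AS1) described as biological replicates. Both groups were A549 cells infected with virus, and they differed in the hairpin expressed. The knockdown group holds 1 hairpin construct, whose sequence is not named for these libraries, and no rescue was sequenced, so that an effect of this hairpin on other transcripts and the loss of USP2-AS1 cannot be told apart.

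The SLC superfamily groups membrane proteins that move amino acids, sugars, ions, metals, nucleotides, vitamins and drugs across membranes by facilitated diffusion or coupled transport. Most families sit in the plasma membrane or in membranes of lysosomes, endosomes, the Golgi apparatus or the endoplasmic reticulum. SLC25 carriers sit almost entirely in the inner mitochondrial membrane, where they exchange ADP for ATP, import carboxylates, amino acids, cofactors and metal ions, and so tie metabolism in the matrix to the cytosol.

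The table was already selected on the comparison examined here. All 6828 listed genes had passed the authors' own adjusted p threshold between the same groups, and 242 of 369 protein-coding SLC genes of GENCODE release 44 were not in the table. Of 49 SLC25 genes, 21 were listed. The others were not analysed here. Counts of members are therefore descriptions of listed genes, set beside the same counts over all listed genes, and no statement covers an SLC gene outside the table. Values are read counts divided by a size factor of the library, called normalized read counts below. A gene was called when limma gave a Benjamini-Hochberg adjusted p below 0.05 and the log2 fold change, shUSP2-AS1 over shctrl, was at least 1 in size. "Rose" and "fell" are used of called genes. All 128 members passed the adjusted p threshold, so a member given as higher or lower passed it at a smaller fold change.

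The reads on listed genes numbered 10772788 to 14120472 per library. USP2-AS1 itself had normalized read counts of 23.2 and 24.2 in shctrl and 2.10 and 6.16 in shUSP2-AS1 (log2 fold change -2.39, SE 0.56, adjusted p = 0.000597), a drop that rests on few reads. Leaving out a library moved this value to between -2.99 (without shUSP2-AS1 replicate 2) and -1.78 (without shUSP2-AS1 replicate 1). The libraries within a group differed more than counting noise alone gives, with a chi-square per degree of freedom of 3.72 in shctrl and 3.83 in shUSP2-AS1. Of 6 epithelial markers, 4 were listed: the keratin genes KRT18 fell (log2 fold change -1.05), KRT8 and KRT7 were lower (-0.77 and -0.49) and KRT19 was higher (0.75). Of 5 markers of alveolar type II cells, for which A549 often serves as a model, 1 was listed, the surfactant lipid transporter ABCA3, which rose (1.76). Of 4 fibroblast markers, 1 was listed: COL1A1 had counts of 261 and 293 in shctrl and 530.0 and 618 in shUSP2-AS1 (1.05). None of 3 leukocyte or 3 endothelial markers was listed, and markers outside the table were not analysed here. The part of these markers in the results below was not tested.

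The promoter windows of 5 SLC25 genes are shown first, because the knockdown comparison concerns the ADP/ATP carriers SLC25A5 and SLC25A6 most by level, and because the wider study deals with c-Myc and E2F1, whose binding motifs can be searched for. The windows were taken from RefSeq (GRCh38.p14), run from 250 bases before to 50 bases after an annotated transcript start, and are written 5′ to 3′ on the strand of the gene. Capitals mark GC boxes (GGGCGG, or CCGCCC where the box lies on the other strand) in SLC25A5 (chrX:119468194-119468493, plus strand) and SLC25A6 (chrX:1392064-1392363, minus strand), an E2F motif in SLC25A11 (chr17:4939997-4940296, minus strand) and the E-box CACGTG in SLC25A36 (chr3:140941586-140941885, plus strand) and SLC25A38 (chr3:39383120-39383419, plus strand).
SLC25A5: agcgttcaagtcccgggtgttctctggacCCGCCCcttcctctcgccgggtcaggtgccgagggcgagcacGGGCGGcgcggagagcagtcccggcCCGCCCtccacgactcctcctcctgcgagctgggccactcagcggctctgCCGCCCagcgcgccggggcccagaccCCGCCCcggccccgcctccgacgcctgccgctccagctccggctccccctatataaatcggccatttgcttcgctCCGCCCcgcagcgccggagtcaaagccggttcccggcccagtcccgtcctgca
SLC25A6: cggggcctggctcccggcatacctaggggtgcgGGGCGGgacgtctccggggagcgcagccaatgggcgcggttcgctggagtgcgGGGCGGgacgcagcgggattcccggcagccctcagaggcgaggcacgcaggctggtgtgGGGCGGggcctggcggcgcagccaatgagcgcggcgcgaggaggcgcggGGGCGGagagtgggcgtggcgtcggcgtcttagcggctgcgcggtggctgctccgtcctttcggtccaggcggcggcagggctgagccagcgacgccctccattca
SLC25A11: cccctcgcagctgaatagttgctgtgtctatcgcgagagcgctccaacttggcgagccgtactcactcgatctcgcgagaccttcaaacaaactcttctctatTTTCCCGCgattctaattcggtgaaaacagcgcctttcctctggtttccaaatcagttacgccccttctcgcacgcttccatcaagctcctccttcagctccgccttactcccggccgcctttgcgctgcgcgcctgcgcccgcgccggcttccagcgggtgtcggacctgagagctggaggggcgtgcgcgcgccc
SLC25A36: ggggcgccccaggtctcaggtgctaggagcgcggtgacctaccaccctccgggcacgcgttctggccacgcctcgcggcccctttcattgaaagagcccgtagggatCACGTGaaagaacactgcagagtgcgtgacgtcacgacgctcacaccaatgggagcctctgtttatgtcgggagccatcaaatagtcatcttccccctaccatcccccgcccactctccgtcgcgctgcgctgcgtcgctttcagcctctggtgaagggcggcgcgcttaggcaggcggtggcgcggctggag
SLC25A38: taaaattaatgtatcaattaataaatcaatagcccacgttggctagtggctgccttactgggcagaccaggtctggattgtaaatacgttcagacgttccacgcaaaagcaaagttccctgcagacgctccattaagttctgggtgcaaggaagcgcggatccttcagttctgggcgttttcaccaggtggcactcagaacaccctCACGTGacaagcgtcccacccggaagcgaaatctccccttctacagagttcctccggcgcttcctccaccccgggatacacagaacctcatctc

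SLC25A5 and SLC25A6, which differed from control in opposite directions, both carried GC boxes, 6 in the first window and 4 in the second, and neither window held an E-box or one of the E2F motifs searched. The E2F motif of SLC25A11 starts 147 bases upstream of the transcript start. The E-box starts 143 bases upstream in SLC25A36 and 44 bases upstream in SLC25A38. RefSeq windows were found for 107 of 128 members (155 windows, 18 of them from 17 SLC25 members). The E-box, which reads the same on both strands, was in 13.5% of member windows, in 2 of 18 SLC25 windows and in 7.26% of all 35093 windows. It was in 10 of 46 windows of members with a log2 fold change below 0 and in 11 of 109 windows of members above 0. An E2F motif (TTTCCCGC, TTTCGCGC, TTTGCCGC or TTTGGCGC on either strand) was in 4.52% of member windows, 1 of 18 SLC25 windows and 3.32% of all windows. The GC box on either strand was in 67.7% of member windows, 14 of 18 SLC25 windows and 44.9% of all windows. By direction, the E2F motif was in 3 of 46 windows of members below 0 and in 4 of 109 above. For the GC box these were 32 of 46 and 73 of 109. A member can have more than 1 window, and no split by direction was tested. The set of all windows was not limited to listed genes, from which the members come. A gap between the members and all windows is therefore not read as particular to solute carriers. These shares describe letters in the windows, and nothing about binding was measured in these libraries.

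Most listed solute carriers were higher in the knockdown cells, and the mitochondrial carriers did not share this direction. Of the 107 members of other families, 87 had a log2 fold change above 0 and 20 below, with a median of 0.66, and of these 33 rose and 7 fell. Of the 21 SLC25 members, 9 were above 0 and 12 below, with a median of -0.33, and 1 rose and 3 fell. Over all 6812 genes tested, 3450 were above 0 and 3362 below, with a median of 0.19. In all, 29.7% of tested genes were called, 16.1% higher and 13.5% lower. This all-gene balance depended on the processing: with RLE scaling 1143 genes were called lower and 934 higher, against 922 and 1098 as reported, and the all-gene median was 0.07. Among genes with at least 10 reads in every library it was -0.16. The SLC25 share called lower (14.3%) was thus near the share over all genes (13.5%), while its share called higher (4.76%) was below the 16.1% of all genes. In the other families the shares were 30.8% called higher and 6.54% called lower. By median, SLC25 lay below and the other families above the listed genes at large. The medians of SLC25 and the other families differed by -0.99 on the log2 scale. Genes with little difference between the groups are largely absent from the listed genes, so a median can move far when few genes change side. The size of the difference of medians may therefore depend on that selection. The difference was not tested, because genes of a family are not replicates.

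The medians were alike in both knockdown libraries. Taking each library against the mean of the shctrl libraries on the log2 scale, the SLC25 members had medians of 0.0119 and -0.0119 in shctrl and of -0.320 and -0.333 in shUSP2-AS1. For the other families they were -0.00984 and 0.00984 in shctrl and 0.664 and 0.657 in shUSP2-AS1. The shctrl values lie around 0 because they are set against their own mean. All listed genes had been selected for a difference between these groups, so nothing is read from the size of the group difference beside that between replicates. Summed over members, the normalized read counts of SLC25 were 34830 and 34169 in shctrl and 32399 and 32705 in shUSP2-AS1, against 96847 and 98156 in shctrl and 125072 and 124839 in shUSP2-AS1 for the other families. In bulk RNA, fewer cells that express a gene and less of its RNA per cell cannot be told apart. The groups did not overlap for any of the 128 members, as was so for 6811 of 6812 tested genes (100%), and nothing about the members is read from that.

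**Figure D1:**
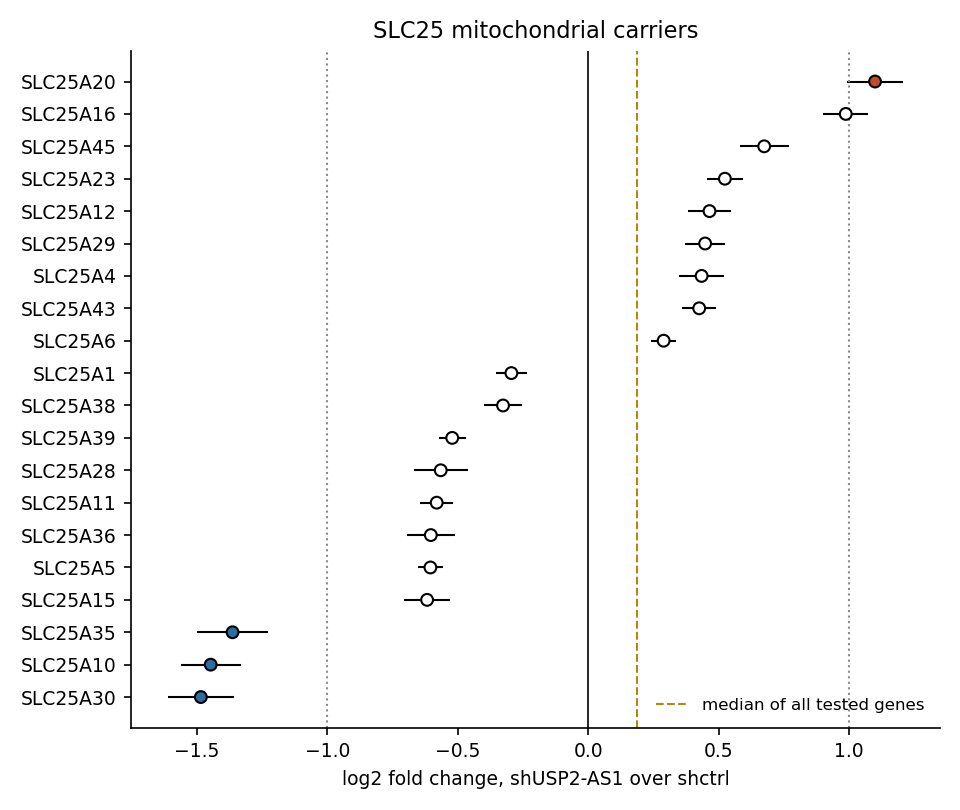
Log2 fold change (shUSP2-AS1 over shctrl) of 20 of the 21 SLC25 members, with the standard error of the limma fit as bars. Filled points are called genes, the dashed line is the median of all tested genes (0.19) and the dotted lines mark a log2 fold change of 1 in either direction. SLC25A30, SLC25A10 and SLC25A35 lie beyond the lower line, and SLC25A20 beyond the upper.

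Within SLC25, the members that fell were carriers of modest abundance. SLC25A30 (ENSG00000174032, chr13:45393316-45418455, minus strand), a carrier related to the uncoupling proteins, had normalized read counts of 361 and 331 in shctrl and 119.9 and 126 in shUSP2-AS1 (log2 fold change -1.49, SE 0.13, adjusted p = 6.07e-09). SLC25A10 (ENSG00000183048, chr17:81712236-81721016, plus strand) encodes the dicarboxylate carrier, which exchanges malate and succinate for phosphate. Its counts were 492 and 423 in shctrl and 165 and 168 in shUSP2-AS1 (log2 fold change -1.45, SE 0.12, adjusted p = 2.57e-09). SLC25A35 (ENSG00000125434, chr17:8287763-8295400, minus strand), an orphan carrier, had 275 and 277 in shctrl and 111 and 102 in shUSP2-AS1 (log2 fold change -1.36, SE 0.14, adjusted p = 4.84e-08). These genes were taken because they were called, so nothing is read from the separation of their groups. The 1 member that rose was SLC25A20 (ENSG00000178537, chr3:48856926-48898904, minus strand), which encodes the carnitine/acylcarnitine carrier that brings fatty acids into the matrix for oxidation. Its counts were 225 and 212 in shctrl and 443 and 497 in shUSP2-AS1 (log2 fold change 1.10, SE 0.11, adjusted p = 3.65e-08). This call was lost with RLE scaling and with DESeq2's own size factors.

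The most abundant SLC25 members changed by less than the fold threshold, and not in a single direction. SLC25A39, which is needed for glutathione import into mitochondria, had counts of 3871 and 3672 in shctrl and 2627 and 2625 in shUSP2-AS1 (log2 fold change -0.52, SE 0.05, adjusted p = 5.28e-08). SLC25A11, the oxoglutarate carrier of the malate-aspartate shuttle, had 2032 and 1843 in shctrl and 1271 and 1315 in shUSP2-AS1 (log2 fold change -0.58, SE 0.06, adjusted p = 1.53e-07). It overlaps RNF167 on the opposite strand, and whether reads were counted by strand is not given in the sources used here. SLC25A1, the citrate carrier that supplies cytosolic acetyl-CoA for lipid synthesis, had 1856 and 1737 in shctrl and 1490.1 and 1438 in shUSP2-AS1 (log2 fold change -0.29). All of these were lower in the knockdown. SLC25A43 had 888 and 889 in shctrl and 1170.4 and 1217 in shUSP2-AS1 (log2 fold change 0.43) and was higher.

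Other members can be grouped by what they carry. SLC25A28, mitoferrin of non-erythroid cells, which imports iron, had counts of 403 and 399 in shctrl and 257 and 285 in shUSP2-AS1 (log2 fold change -0.57). It was lower in the knockdown, as was SLC25A38, a glycine carrier that serves heme synthesis, at -0.33. The pyrimidine nucleotide carrier SLC25A36, whose window holds an E-box, had 548 and 595 in shctrl and 389 and 362 in shUSP2-AS1 (-0.60). The ornithine carrier SLC25A15 of the urea cycle was also lower (-0.62), whereas the aspartate/glutamate carrier SLC25A12 (0.46), the basic amino acid carrier SLC25A29 (0.45) and the ATP-magnesium/phosphate carrier SLC25A23 (0.52) were higher. SLC25A12 overlaps HAT1 on the opposite strand. SLC25A16 had counts of 444 and 400.0 in shctrl and 798 and 875 in shUSP2-AS1 and stood just inside the fold threshold (log2 fold change 0.99, SE 0.09, adjusted p = 9.27e-09). SLC25A45 was at 0.67. Carriers of amino acids thus lay on both sides of 0, while the iron and heme related members named here lay below it.

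The 3 ADP/ATP carriers, which exchange cytosolic ADP for matrix ATP, are related paralogs, and their sequences were not compared here. Reads could be split between them by the counting, and SLC25A6 lies in the pseudoautosomal region. Their values carry that uncertainty. SLC25A5 (ENSG00000005022, chrX:119468422-119471396, plus strand) had counts of 8248 and 8216 in shctrl and 5328 and 5495 in shUSP2-AS1, a mean of 8232 ± 22.8 against 5412 ± 118 (SD, n = 2 each), and was lower in the knockdown (log2 fold change -0.61, SE 0.05, adjusted p = 2.31e-09). SLC25A6 (ENSG00000169100, chrX:1386152-1392113, minus strand) had 10889 and 10902 in shctrl and 13239 and 13379 in shUSP2-AS1, a mean of 10895 ± 9.11 against 13309 ± 98.6, and was higher (log2 fold change 0.29, SE 0.05, adjusted p = 1.66e-05). SLC25A4, the isoform typical of heart and muscle, had 428 and 409 in shctrl and 557 and 574 in shUSP2-AS1 (log2 fold change 0.43, SE 0.09, adjusted p = 0.000144). Per kilobase of gene length, the summed level of the 3 genes was 12405 and 12388 in shctrl and 12067 and 12268 in shUSP2-AS1. With the authors' size factors this was a small change beside those of its parts. With RLE scaling the log2 fold changes of SLC25A5 and SLC25A6 were -0.72 and 0.17. The sum was not taken with that scaling, so a constant total is not read from it. Within the summed level, SLC25A5 made up 42.8% and 42.6% in shctrl and 28.4% and 28.8% in shUSP2-AS1. The share of SLC25A6 was 56.5% and 56.7% in shctrl and 70.6% and 70.2% in shUSP2-AS1, and that of SLC25A4 0.716% and 0.685% against 0.958% and 0.971%. SLC25A6 was the more abundant isoform in every library, and its lead over SLC25A5 was larger in both knockdown libraries.

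**Figure D2:**
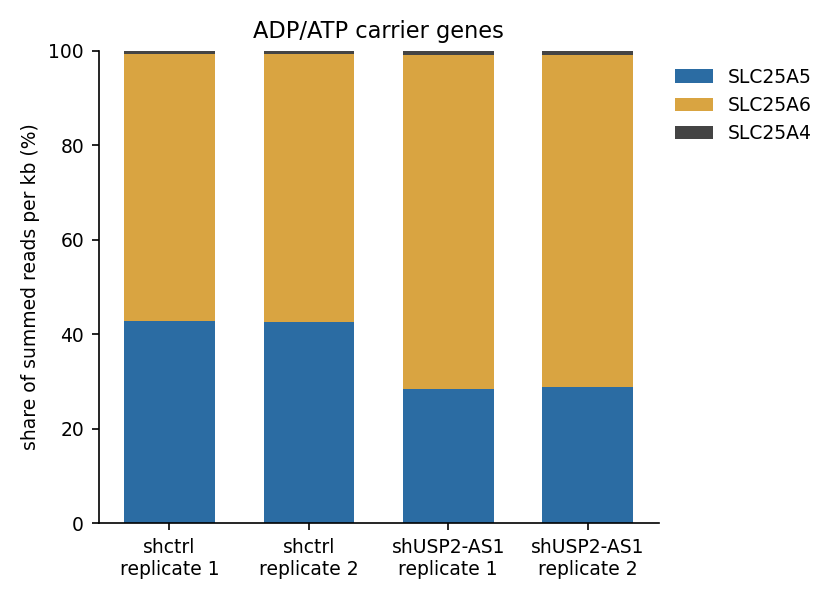
Share of the summed ADP/ATP carrier level, in percent of normalized read count per kilobase, taken by SLC25A4, SLC25A5 and SLC25A6 in each of the 4 libraries. SLC25A5 takes 42.6% to 42.8% in the shctrl libraries and 28.4% to 28.8% in the shUSP2-AS1 libraries.

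Other mitochondrial transport genes, taken from lists outside the SLC naming rule, were sparsely listed. Of 5 SLC25 family genes with other symbols, UCP2, an uncoupling protein homolog, had a log2 fold change of -0.63 and MTCH1 of 0.17. Adding both to SLC25 left 3 members that fell and 1 that rose, with a median of -0.33. Of 5 pyruvate carrier and outer membrane channel genes, VDAC2 (-0.37) and VDAC3 (-0.26) were lower and MPC2 (0.41) was higher. None of these 5 listed genes passed the fold threshold. SLC8B1 is not an SLC25 member but encodes the sodium/calcium exchanger of the inner mitochondrial membrane. SLC8B1 had counts of 325 and 312 in shctrl and 562 and 501 in shUSP2-AS1 (0.73) and was higher. It overlaps PLBD2 on the opposite strand.

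**Figure D3:**
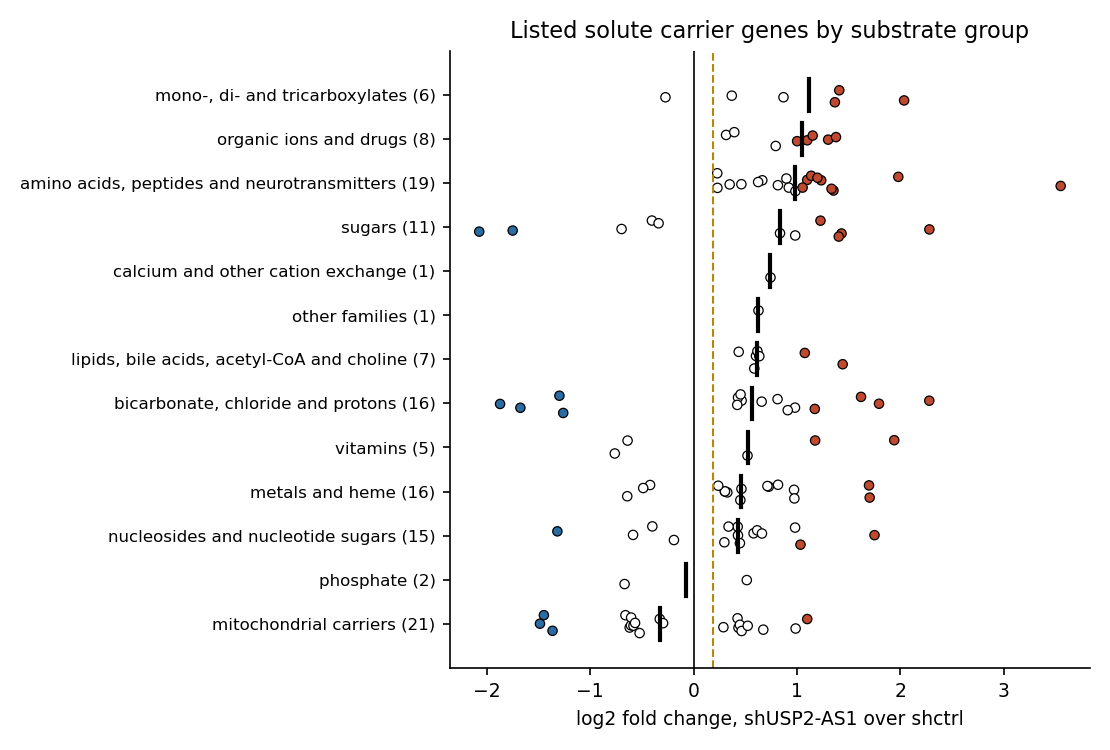
Log2 fold change (shUSP2-AS1 over shctrl) of every member, by what its family carries. Each point is a gene, filled where called, the black bar is the median of the group and the dashed line the median of all tested genes (0.19). All 19 members of the amino acid group, all 8 of the organic ion group and all 7 of the lipid group lie above 0, and the SLC25 points straddle it.

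The share of each role group that rose is to be read beside the 16.1% of all tested genes called higher. Among transporters of amino acids, peptides and neurotransmitters, all 19 members were above 0, with a median of 0.98, and 9 rose (47.4%). The 5 genes left out by the naming rule also carry amino acids, and they did not share this pattern: SLC7A1 (-0.58) and SLC1A5 (-0.36) were lower, SLC3A2 (0.13) and SLC7A11 (0.41) were higher, and SLC7A5 (0.10, adjusted p = 0.068) did not pass the limma threshold. SLC17A7, a vesicular glutamate transporter known from neurons, had counts of 23.2 and 17.6 in shctrl and 95.7 and 71.3 in shUSP2-AS1 (log2 fold change 1.98, SE 0.28, adjusted p = 3.55e-06), at low level in every library. SLC1A1, a glutamate uptake carrier of the plasma membrane, had 55.1 and 57.1 in shctrl and 146 and 144 in shUSP2-AS1 (log2 fold change 1.35, SE 0.18, adjusted p = 1.82e-06). SLC17A4, counted among the 9, passed the filter on low values only through the knockdown libraries. It had 2 reads in the control libraries together and 40 in the knockdown libraries, a ratio of 18.6 after scaling (95% exact interval 4.83 to 159, which covers counting error only).

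Several members of this group act in the lysosome, and those given here were named after their values were seen. SLC36A1, a proton-coupled amino acid exporter of the lysosome, had counts of 459 and 496 in shctrl and 1185 and 1223 in shUSP2-AS1 (1.33). SLC38A9, which senses lysosomal arginine for mTORC1, had 209.7 and 270.3 in shctrl and 519 and 473 in shUSP2-AS1 (1.05), a call lost with RLE scaling and without shUSP2-AS1 replicate 1 or shctrl replicate 1. SLC17A5, which exports sialic acid from lysosomes, had 391 and 376 in shctrl and 902 and 905 in shUSP2-AS1 (1.23). SLC38A7, which exports glutamine from the lysosome, had 556 and 658 in shctrl and 1156 and 1136 in shUSP2-AS1 (0.92, not called). For these genes both knockdown libraries lay above both control libraries. The groups were apart for 6811 of 6812 tested genes, so nothing about these genes is read from that. At the plasma membrane SLC7A7, a partner of SLC3A2 in exchange of basic for neutral amino acids, rose by 1.14 on the log2 scale. SLC6A6, the taurine transporter, had the largest counts of the group, 7539.8 and 7978 in shctrl and 14605 and 14294 in shUSP2-AS1, and a log2 fold change of 0.90 (SE 0.05) just short of the threshold. It overlaps GRIP2 on the opposite strand. SLC38A2 and SLC38A10, the next most abundant, were both at 0.23.

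The sugar transporters lay on both sides of 0. SLC2A1 (GLUT1, ENSG00000117394, chr1:42925353-42958893, minus strand), the basal glucose transporter of most cells, rose from 3297 and 3105 to 8627 and 8625 normalized read counts, a mean of 3201 ± 136 against 8626 ± 1.80 (SD, n = 2 each; log2 fold change 1.43, SE 0.05, adjusted p = 6.41e-14). SLC2A12, another glucose transporter, had 42.5 and 39.6 in shctrl and 208 and 198 in shUSP2-AS1 (log2 fold change 2.28, SE 0.18, adjusted p = 2.36e-09). SLC2A3, a glucose transporter of high affinity, had 588 and 578 in shctrl and 1119 and 1189 in shUSP2-AS1 and stayed just under the fold threshold (0.98). SLC2A4RG, at -0.40, meets the naming rule but encodes a transcription factor named after SLC2A4.

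Carriers of myo-inositol changed in opposite directions. SLC5A3, the sodium-coupled inositol transporter, had counts of 455 and 529.7 in shctrl and 171 and 123 in shUSP2-AS1 (log2 fold change -1.75, SE 0.14, adjusted p = 3.37e-09). SLC2A13, the proton-coupled one, had 207 and 181 in shctrl and 466 and 444 in shUSP2-AS1 (log2 fold change 1.23, SE 0.11, adjusted p = 1.4e-08). SLC50A1 (ENSG00000169241, chr1:155135344-155138857, plus strand), the human member of the SWEET sugar transporters, had the largest decrease of all members, from 439.7 and 418 to 101 and 101 (log2 fold change -2.07, SE 0.12, adjusted p = 5.97e-11). In SLC45, SLC45A1 rose (1.40) and SLC45A4 was lower (-0.70). Within the 11 members of this group 4 rose (36.4%) and 2 fell (18.2%), and the median was 0.84.

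**Figure D4:**
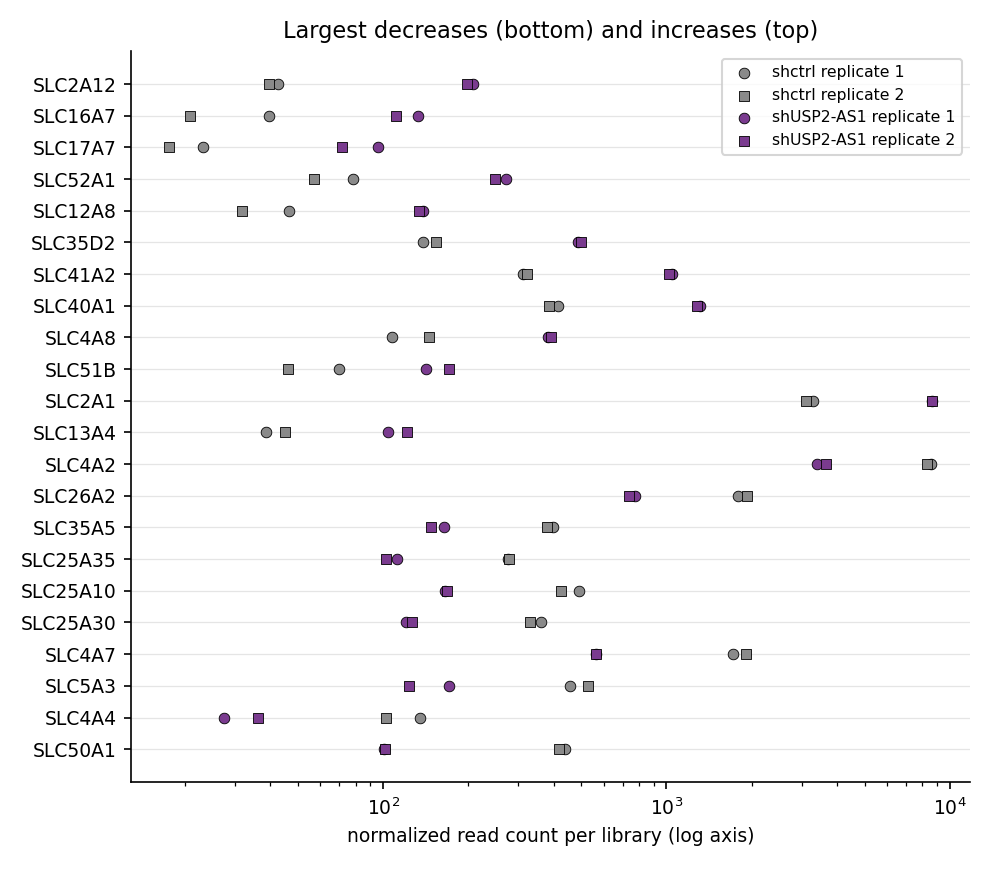
Normalized read count (log axis) in each of the 4 libraries for the 22 members with the largest decreases and increases among called members with a mean of at least 50. In each row the groups are apart, as the choice of called genes whose groups do not overlap requires. The libraries of a group lie less close together in some rows of low count, such as SLC16A7 in shctrl (39.6 and 20.9).

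Transporters of bicarbonate, chloride and protons held 4 of the 10 members that fell, although 12 of the 16 were above 0 and 4 rose (25% in each direction). The SLC4 bicarbonate family accounted for 3 of the decreases, while its other listed members were above 0. SLC4A2 (ENSG00000164889, chr7:151057210-151076526, plus strand), an anion exchanger that swaps chloride for bicarbonate and so acidifies the cell, had 8557 and 8302 in shctrl and 3396 and 3644 in shUSP2-AS1, a mean of 8429 ± 181 against 3519.8 ± 176 (SD, n = 2 each; log2 fold change -1.26, SE 0.05, adjusted p = 4.09e-13). SLC4A7 and SLC4A4, sodium bicarbonate cotransporters that load the cell with base, had 1720.0 and 1902 in shctrl and 566 and 566 in shUSP2-AS1 (log2 fold change -1.67, SE 0.07, adjusted p = 5.73e-13), and 135 and 102 in shctrl and 27.3 and 36.1 in shUSP2-AS1 (log2 fold change -1.87, SE 0.24, adjusted p = 9.87e-07). SLC4A8, a sodium-driven chloride/bicarbonate exchanger, went the other way, from 107 and 145 to 381 and 390.0 (log2 fold change 1.62, SE 0.14, adjusted p = 8.87e-09). The fourth decrease was SLC26A2, the sulfate transporter whose loss causes skeletal dysplasias, with 1789.5 and 1923 in shctrl and 774 and 735 in shUSP2-AS1 (log2 fold change -1.30, SE 0.07, adjusted p = 7.71e-12).

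Members of the sodium/proton exchanger family SLC9 and the cation-chloride family SLC12 were all above 0 (3 of 3 and 4 of 4). SLC9A2 rose by 1.17 on the log2 scale, and the endosomal exchanger SLC9A9 from 7.73 and 5.49 to 36.8 and 34.3, where the control libraries held 8 and 5 reads and the filter on low values was passed only through the knockdown libraries. SLC12A8 had 46.4 and 31.9 in shctrl and 138 and 134 in shUSP2-AS1 (log2 fold change 1.79, SE 0.22, adjusted p = 6.48e-07), and the potassium-chloride cotransporter SLC12A4, the most abundant of its family here, 1239 and 1278 in shctrl and 1703 and 1689 in shUSP2-AS1 (0.43).

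Metal transporters were mostly higher by less than the fold threshold (13 of 16 above 0, median 0.46), and 2 rose (12.5%, near the 16.1% of all tested genes). SLC40A1 (ENSG00000138449, chr2:189560590-189583758, minus strand) encodes ferroportin, the iron exporter of human cells. Its counts were 415 and 386 in shctrl and 1310.3 and 1286 in shUSP2-AS1 (log2 fold change 1.70, SE 0.08, adjusted p = 1.33e-12). The magnesium transporter SLC41A2 rose by as much, from 311 and 321 to 1044 and 1018 (1.70), while its paralog SLC41A1 was lower (949 and 978 to 692 and 682, -0.49). Of the zinc transporters, the SLC30 family moves zinc out of the cytosol and the SLC39 family into it. All 5 SLC30 members were higher without a call, with the plasma membrane exporter SLC30A1 at 0.45. In SLC39, 4 were above 0 and 2 below, namely SLC39A14 (3673 and 3753 in shctrl and 2363 and 2397 in shUSP2-AS1, -0.64) and SLC39A8 (-0.42), both of which also carry iron and manganese.

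Among the 6 carboxylate transporters, 3 rose (50%) and the median was 1.12. SLC16A7 (MCT2), a lactate and pyruvate carrier of high affinity, had 39.6 and 20.9 in shctrl and 132 and 111 in shUSP2-AS1 (log2 fold change 2.04, SE 0.27, adjusted p = 1.79e-06). SLC16A4 had 799 and 743 in shctrl and 1965 and 2012 in shUSP2-AS1 (log2 fold change 1.37, SE 0.06, adjusted p = 2.79e-12). SLC13A4, a sodium-coupled sulfate carrier, had 38.7 and 45.1 in shctrl and 104 and 121 in shUSP2-AS1 (1.41) and overlaps STMP1 on the opposite strand. SLC16A3 (MCT4), which exports lactate from glycolytic cells, was the 1 member below 0, with 2787 and 2525 in shctrl and 2301 and 2098 in shUSP2-AS1 (-0.27). It overlaps CSNK1D on the opposite strand.

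All 8 members of the organic ion and drug families were above 0 and 5 rose (62.5%), with a median of 1.05. Both counts include SLC22A18AS, which is a member by its symbol. SLC22A3 (OCT3), an organic cation transporter, was the most abundant, with 1365 and 1524 in shctrl and 3194 and 3221 in shUSP2-AS1 (log2 fold change 1.15, SE 0.06, adjusted p = 1.13e-11). SLC22A17, a receptor for lipocalin-2, had 169 and 203 in shctrl and 471 and 496 in shUSP2-AS1 (1.38), and SLC22A23 428 and 495 in shctrl and 1143 and 1128 in shUSP2-AS1 (1.30). SLC22A18 and SLC22A18AS overlap on opposite strands, at 1.10 and 1.00, so that without strand their reads cannot be told apart and they may not be 2 separate calls. Both calls were lost with RLE scaling and without shctrl replicate 2, and that of SLC22A18AS also with TMM, with edgeR and without shUSP2-AS1 replicate 2. The carnitine transporter of the plasma membrane, SLC22A5, was higher by 0.31, against 1.10 for the mitochondrial carnitine carrier SLC25A20. Without SLC2A4RG and SLC22A18AS, the other families numbered 105, with 86 above 0, 32 that rose, 7 that fell and a median of 0.66.

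Vitamin transporters lay on both sides of 0. The folate carriers SLC19A1 (894 and 859 in shctrl and 502 and 532 in shUSP2-AS1, -0.76) and SLC46A1 (411 and 396 in shctrl and 272 and 246 in shUSP2-AS1, -0.64), the latter overlapping SARM1 on the opposite strand, were both lower without a call. The riboflavin transporter SLC52A1 had 78.3 and 57.1 in shctrl and 271 and 248 in shUSP2-AS1 (log2 fold change 1.94, SE 0.17, adjusted p = 9.91e-09) and the lysosomal SLC46A3 133 and 149 in shctrl and 301 and 341 in shUSP2-AS1 (1.18), and both rose. The thiamine carrier SLC19A2 was at 0.52. SLC5A6, counted with the sugar families by its number, carries biotin and pantothenate and was lower (-0.34). The phosphate importers SLC20A1 (2839.8 and 2989 in shctrl and 1802 and 1867 in shUSP2-AS1, -0.67) and SLC20A2 (0.51) differed in direction.

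In the nucleoside and nucleotide sugar families, 11 of 15 were above 0, 2 rose (13.3%) and 1 fell (6.67%), with a median of 0.43, shares below those of all tested genes. SLC35D2, a Golgi nucleotide sugar transporter, rose from 138 and 154 to 488 and 497 (log2 fold change 1.75, SE 0.11, adjusted p = 1.79e-10). SLC35A5 fell from 399 and 378 to 164 and 147 (log2 fold change -1.32, SE 0.12, adjusted p = 1.29e-08) and overlaps ATG3 on the opposite strand. SLC35E3 rose from 614 and 657 to 1365 and 1241, close to the threshold (1.03), a call lost with RLE scaling and without shUSP2-AS1 replicate 1 or shctrl replicate 1. SLC29A1, the equilibrative nucleoside transporter, was lower (-0.40). All 7 members that carry lipids, bile acids, acetyl-CoA or choline were above 0, with a median of 0.62. SLC51B, a subunit of the basolateral bile acid exporter, rose from 69.6 and 46.2 to 142 and 171 (1.44), and SLC33A1, which brings acetyl-CoA into the endoplasmic reticulum, from 151 and 138 to 276 and 339 (1.08), a call lost with RLE scaling and without shUSP2-AS1 replicate 2. The choline transporter SLC44A1 was at 0.64 and the fatty acid transporter SLC27A4 at 0.60. SLC49A4, the 1 member left over, was at 0.62.

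Taken by family, 24 families other than SLC25 had at least 2 members, and 11 of these had no member below 0. In 4 of the 24 the median was below 0. The direction of the other families was thus spread over many small families. Members near the fold threshold were few but affect the counts: 9 members had a log2 fold change between 0.9 and 1 in size, and 7 called members lay below 1.1.

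Transporters outside the SLC naming were taken for comparison. Of 20 listed ABC genes, 17 were above 0 and 9 rose (45%, against 16.1% of all tested genes), with a median of 0.82. The 3 below 0 were ABCE1, ABCF2 and ABCF3, soluble proteins that do not act as transporters. The 17 others, which use ATP to drive transport or regulate channels, had a median of 1.05. Of 6 MFSD genes 2 rose (33.3%), with a median of 0.65. Of 5 SLCO genes, which carry organic anions, 3 rose (60.0%) and 1 fell (SLCO4A1, -1.84), with a median of 1.28. The 3 listed sodium pump subunits were at 0.23 to 0.93, with none called. 

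Per kilobase of gene length, the order of the members by level changed between the groups mainly below the top. SLC25A6 (7016 in shctrl, 8570.0 in shUSP2-AS1) and SLC25A5 (5294 and 3480.1) held ranks 1 and 2 among the 128 members in both groups. SLC4A2 moved from rank 3 in shctrl (1114) to rank 17 in shUSP2-AS1 (465). SLC6A6 moved from rank 5 (940.0) to rank 3 (1751), and SLC2A1 moved from rank 13 (484) to rank 4 (1304). In single shctrl libraries SLC6A6 held ranks 6 and 5 and SLC2A1 ranks 13 and 15, while the shUSP2-AS1 ranks were the same in both libraries.

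**Figure D5:**
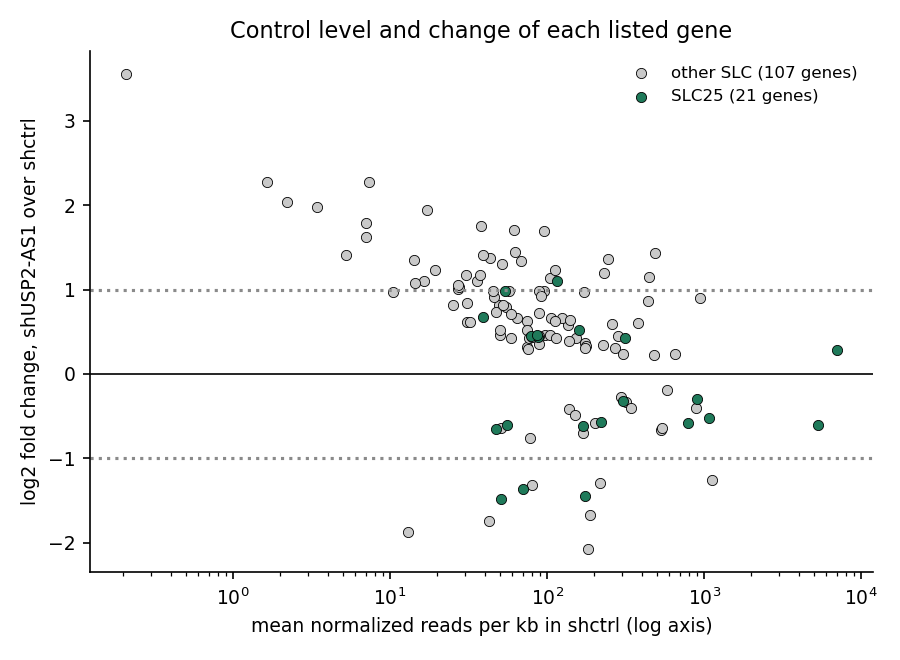
Log2 fold change (shUSP2-AS1 over shctrl) against the mean shctrl level per kilobase (log axis) for the SLC25 members and the other SLC members. Among the other families the higher fold changes lie at lower levels, and the SLC25 points show no such slope.

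Level and fold change were related across genes, which are not independent replicates, and both contain the shctrl values. With the shctrl level per kilobase, Spearman's rho was -0.57 over the 107 members of other families, -0.066 over the 21 SLC25 members and -0.32 over all 6812 tested genes. With the mean normalized read count these were -0.45, 0.32 and -0.11, so the relation depended on the measure of level. The contrast of SLC25 with the other families was seen on both sides of a mean normalized read count of 500. Below it, the median was -0.60 in SLC25 (9 members) and 0.97 in the other families (47 members), against 0.53 over all tested genes. At or above it, the medians were -0.0031 (12 members) and 0.46 (60 members), against -0.23 over all tested genes. By median, SLC25 members were thus below the other families in both ranges and below the listed genes at large in the lower range. In the higher range 6 of 12 SLC25 members and 2151 of 4120 tested genes were below 0, much the same share. The SLC25 median there falls in the gap between SLC25A1 (-0.29) and SLC25A6 (0.29). Its place above the all-gene median is therefore not read as a difference.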

How the data were processed

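RNA-seq was performed on A549 cells infected with lentivirus carrying a control or a USP2-AS1 hairpin, with 2 libraries per group. Columns headed scr were taken as shctrl and those headed sh216 as shUSP2-AS1, by the table's heading and the methods, and replicate numbers came from the column names. Per the labels, the submitters' processing notes name HISAT2 2.0.5, featureCounts 1.5.0-p3, DESeq2 1.20.0 and hg38. Strand use in counting was not given in the sources used here. The authors deposited a normalized signal, which is a read count per gene divided by the library's size factor. The deposited fold change and p-value columns hold their own comparison and were not used, except to check that every row had passed their threshold. Every value column belonged to 1 of the 4 libraries.

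Genes averaging at least 10 (6812 of 6828, all 128 members among them) were put on a log2(value + 1) scale and fitted with limma 3.58.1 (R 4.3.3; lmFit, eBayes with trend) and adjusted by Benjamini-Hochberg over all tested genes. A fold change on this scale understates the change of low genes. The value of 1 read was 0.966 and 1.10 in shctrl and 1.05 and 0.880 in shUSP2-AS1, and 100% of values gave whole reads within 0.01 read. These reads entered edgeR 4.0.16 and DESeq2 1.42.0 as alternatives. The sums of reads cover listed genes only, so full library depth is unknown. 

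Members, role groups and lists (SLC25 carriers with other symbols, pyruvate carriers and outer membrane channels, SLCO, MFSD, ABC, sodium pump, cell type markers) were chosen with earlier results of these data known. Role groups follow the family number. Named members were up to 12 of the largest decreases (10 qualified) and the 12 largest increases among called members with a mean of at least 50, the called and the 6 most abundant SLC25 members, and in each role group up to 3 most abundant and up to 3 most changed called members. The following were named after their values were seen: the SLC25 members outside this rule, SLC2A3, SLC2A13, SLC7A7, SLC9A2, SLC17A5, SLC22A18, SLC22A18AS, SLC29A1, SLC36A1, SLC38A7, SLC38A9, SLC39A8, SLC41A1, SLC45A1, SLC45A4 and SLC6A17. ABCE1, ABCF2 and ABCF3 were set apart after their values were seen. Some members are counted but not reported individually here. Coordinates are those of the deposited table, and all 128 identifiers matched and overlapped GENCODE release 44 (GRCh38). Of the members, 15 overlap another listed gene, 14 of these on the opposite strand.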

Additional observations from a re-analysis of the deposited data

How the results depend on the processing

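No member changed sign under any setting tried. Over the 15 settings that kept the fold threshold, 35 of the 44 called members were called in all, 10 that fell and 25 that rose. The number of SLC25 members that rose was 0 with RLE scaling, with DESeq2 and its own size factors and in a limma test against a fold change of 2, 2 with upper quartile scaling and 1 to 2 when a library was left out (2 without shUSP2-AS1 replicate 1 or shctrl replicate 1), against 1 as reported. The same 7 calls were lost with RLE scaling and with DESeq2's own size factors (SLC6A17, SLC22A18, SLC22A18AS, SLC25A20, SLC33A1, SLC35E3 and SLC38A9). SLC35E3 and SLC38A9 lost theirs also without shUSP2-AS1 replicate 1 or shctrl replicate 1, SLC6A17 without shUSP2-AS1 replicate 1, SLC33A1 and SLC22A18AS without shUSP2-AS1 replicate 2, and SLC22A18 and SLC22A18AS without shctrl replicate 2. TMM scaling and edgeR lost SLC22A18AS. RLE scaling shifted the median over all 6812 genes by -0.12, and turned the all-gene balance of calls to 1143 lower and 934 higher (1140 and 942 with DESeq2's own size factors). With at least 10 reads in every library, which tests fewer genes, the all-gene median was -0.16. The SLC25 median was -0.44 with RLE scaling, -0.44 with DESeq2's own size factors, -0.27 with upper quartile scaling and -0.35 to -0.30 when a library was left out. The median of the other families was 0.54 with RLE scaling and with DESeq2's own size factors, 0.65 with TMM, 0.72 with upper quartile scaling, 0.64 with at least 10 reads in every library, and 0.64 to 0.69 when a library was left out. The difference of medians was -0.96 with at least 10 reads in every library and -1.04 to -0.94 when a library was left out.

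With no fold threshold 32 members were lower and 96 higher (SLC25 12 and 9, other families 20 and 87). Against a fold change of 2, 18 members rose, all 18 in the other families, and 8 fell, 2 in SLC25 and 6 in the other families. SLC25A35 and SLC35A5 were no longer called lower in that test. The number of members called was 37 with RLE scaling, 51 with upper quartile scaling and 43 with edgeR. The replicate numbers were not shown to pair the libraries (correlation of replicate differences across genes -0.0397). With the replicate block 44 members were called, 10 lower and 34 higher, the same 44. Members with under 10 reads in a control library (SLC17A4, SLC9A9) are limited by depth.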
